A study of Bos taurus with 15 samples.

Results

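The genes described here encode the pore of CatSper, the sperm calcium channel, and the testis-specific serine kinases, and they were taken by name from an expression study of bovine testis. The set held 8 genes, CATSPER1, CATSPER2, CATSPER3, CATSPER4, TSSK1B, TSSK2, TSSK3 and TSSK6, of which 7 had a probe and 6 were measured well enough to be tested, out of 13934 genes tested on the array. The tested animals were 8 cattle given prednisolone, a synthetic glucocorticoid, orally every day for 35 days, 30 mg to each animal, and the animals they were set against were 7 cattle that received none. Testes were collected at slaughter, total RNA was extracted, and each animal was measured on 1 single-colour Agilent oligonucleotide array. Breed, age and genotype are not given in the sources used here, and animals are called by their group and label number.

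CatSper is a calcium channel of the sperm tail that opens when the inside of the cell becomes alkaline, and in mice and humans it is needed for the whiplash beating called hyperactivation. CATSPER1, CATSPER2, CATSPER3 and CATSPER4 each contribute a different pore-forming subunit, and mice that lack any of them have infertile males. The testis-specific serine kinases, TSSK, are made in spermatids, the cells that turn into sperm after meiosis, and in mice they are needed for forming a working sperm head and tail. A whole testis mixes spermatids with other germ cells and with somatic cells, so fewer spermatids and less of an RNA per spermatid cannot be told apart in these samples.

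Every member probe was printed as 2 spots on the array. A level below is the log2 processed signal averaged over those spots, minus the 75th percentile of all probes on the same array, so a level of 0 is that percentile. Different probes are not compared in level, because probes differ in how brightly they bind. CATSPER1, CATSPER2, CATSPER3, CATSPER4, TSSK3 and TSSK6 were matched through the gene numbers in the scanner files, where CATSPER1 bears the older description of sperm-associated cation channel 1. The probe called TSSK1B here was matched only by its older name, TSSK1, and its gene number was not in the gene table, so its identity is less certain. TSSK1B and TSSK2 lie next to each other in the ARS-UCD2.0 gene table, and no probe was named for TSSK2, which is not analysed here.

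The tissue label was set against 9 chosen markers. The spermatid genes PRM1, TNP1 and ODF1, the Leydig cell genes STAR and INSL3, the Sertoli cell gene AMH and the smooth muscle gene ACTA2 were well above background on every array. SYCP3 and SOX9 were so on all arrays except that of prednisolone 30. Other listed markers were not: the spermatid gene PRM2 was well above background in 0 treated animals and 1 control, and CAPZA3 in 1 and 0. The Leydig cell gene SCARB1 was so in 0 and 0. From lists of other tissues, PTGDS (epididymis) and CIDEC (fat) were well above background on every array, and ADAM28 and ADIPOQ on none. The array of prednisolone 30 stood apart from the other 14. Only 36.5% of its probes were well above background, against 82.2 to 89.9% on the other arrays, and its 75th percentile was a signal of 49.4, against 1220 to 2780. Its levels correlated with those of other arrays at 0.705 to 0.736, where the lowest correlation among the other arrays was 0.962. In the authors' deposited table the column of this animal did not follow its scanner file (r = 0.0044 for gene-centred values, against 0.883 to 0.976 for the other animals), so results are given with and without it.

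The disagreement within the array of prednisolone 30 was large for the CatSper probes. The 2 CATSPER1 spots read 91.5 and 3110, a 34.0-fold gap, whereas on the other 14 arrays the gap had a median of 1.11-fold and reached at most 2.40-fold, in control 22. The CATSPER4 spots of prednisolone 30 read 2.73 and 203, and its CATSPER2 spots read 3.09 and 13.4. For the kinases the gap on this array was 2.21-fold for TSSK1B, 1.69-fold for TSSK6 and 1.37-fold for TSSK3, and for CATSPER3 it was 3.25-fold. Across all probes, 41.2% of the pairs on that array differed by more than 1 on the log2 scale, against 1.37 to 7.59% on the others. A mean of 2 spots therefore stands for less on this array, and least for CATSPER1 and CATSPER4.

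**Figure D1:**
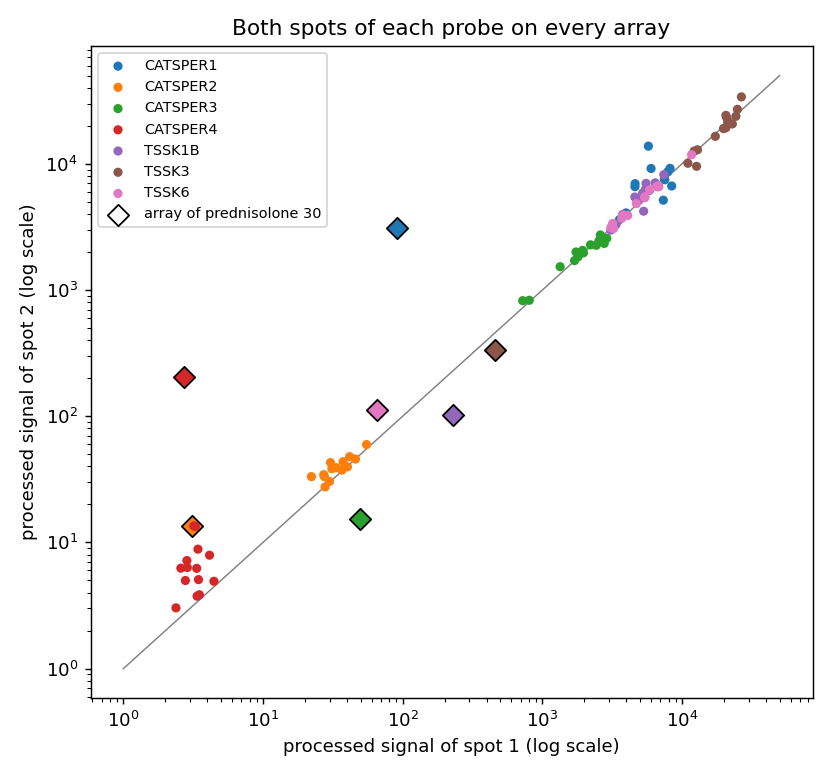
Processed signal of the first spot (x axis, log scale) and the second spot (y axis, log scale) of each member probe on the 15 arrays; the line marks equal spots, circles are 14 arrays and diamonds the array of prednisolone 30. The diamonds of CATSPER1 (91.5 and 3110) and CATSPER4 (2.73 and 203) lie far from the line, while the circles of all members except CATSPER4 stay within 2.40-fold of it.

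No difference between treated and control testes beyond the spread between animals was detected for any of the 6 tested genes. In limma's moderated test over all 18492 tested probes the adjusted p ran from 0.883 to 0.988, and no gene of the array passed 0.05 (percent called 0). At an unadjusted p under 0.05 stood 2.43% of the genes tested and 0 of the 6 members. Without prednisolone 30 the share of all genes at that p was 4.18%, and again 0 of the 6 members stood there. Differences above 0 were found for 5 of 6 members over all arrays, where 52% of all genes had one, for 6 of 6 without prednisolone 30 (52.4% of all genes), for 5 of 6 without control 17 (50.3%), and for 3 of 6 without both animals (51.5%). Values of the groups overlapped for every member. On the whole array the groups did not overlap for 6 of 13934 genes (0.0431%), and without prednisolone 30 for 9 (0.0646%).

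**Figure D2:**
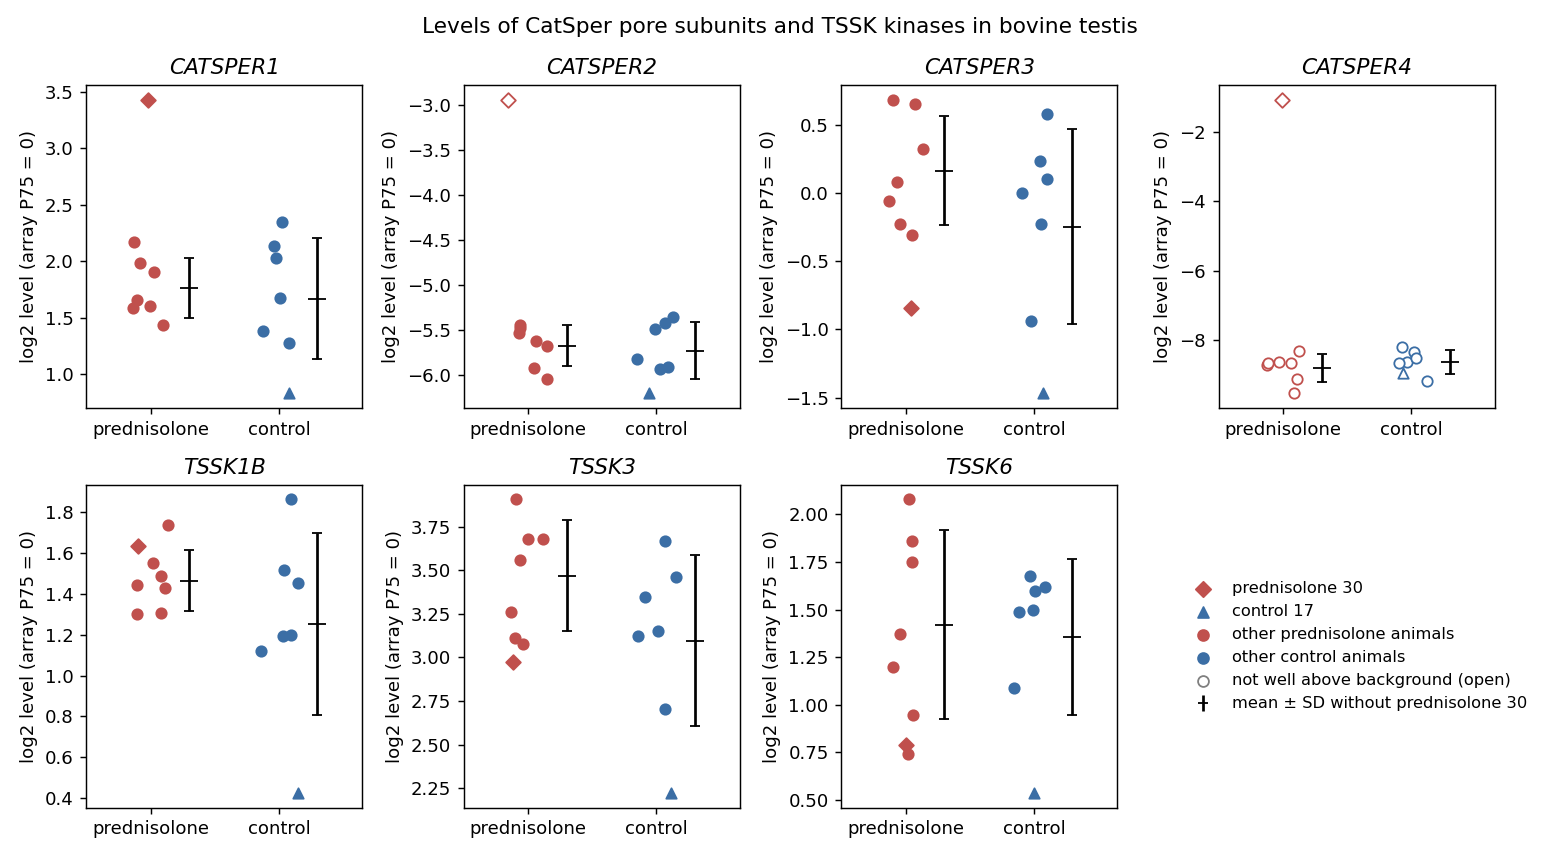
Log2 level (y axis, relative to the array's 75th percentile) of the 7 members with a probe, 1 point per animal, prednisolone on the left and control on the right; bars are mean ± SD without prednisolone 30, and open symbols are arrays where the probe was not well above background. Control 17 (triangle) is the lowest of the 14 other arrays in 6 genes, and prednisolone 30 (diamond) lies far above the rest in CATSPER1, CATSPER2 and CATSPER4.

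Among the channel subunits, CATSPER1 encodes the subunit that gives CatSper its name. Its levels were 1.59, 1.99, 1.43, 1.91, 2.17, 3.43, 1.61 and 1.66 in prednisolone animals 25 to 32, against 0.83, 1.39, 2.13, 1.68, 2.03, 2.34 and 1.28 in controls 17, 18, 20, 21, 22, 23 and 24. Apart from prednisolone 30, all treated animals lay inside the control range. The means were 1.97 ± 0.64 in treated testes (SD, n = 8) and 1.67 ± 0.54 in controls (SD, n = 7), a difference of 0.30 (95% interval -0.32 to 0.93). Without prednisolone 30 the treated mean was 1.77 ± 0.26 (n = 7) and the difference 0.10, and without control 17 it was 0.17.

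CATSPER2 encodes a second pore subunit, and its probe was dim, with spot signals of 22.2 to 59.6 on the 14 arrays. It was well above background in 7 of 8 treated animals, all but prednisolone 30, and in 7 of 7 controls. Treated levels were -6.05, -5.54, -5.92, -5.63, -5.49, -2.94, -5.69 and -5.44, against -6.21, -5.36, -5.93, -5.49, -5.91, -5.83 and -5.42 in controls. The value of -2.94 belongs to prednisolone 30, and the other treated animals all fell within the control range. With that animal the means were -5.34 ± 0.99 (n = 8) in treated and -5.74 ± 0.32 (n = 7) in control testes and the difference 0.40 (-0.38 to 1.17). Without it the treated mean was -5.68 ± 0.23 and the difference 0.06.

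CATSPER3, which encodes another pore subunit, read -0.23, -0.06, -0.31, 0.32, 0.68, -0.84, 0.08 and 0.65 in treated testes, against -1.47, -0.0040, 0.10, 0.23, -0.22, 0.57 and -0.94 in controls. Control 17 and control 24 were the low animals of the control group, and prednisolone 30 was the low animal of the treated group. The means were 0.04 ± 0.51 (n = 8) in treated and -0.25 ± 0.71 (n = 7) in control testes, a difference of 0.28 (-0.36 to 0.92). The difference was 0.41 without prednisolone 30, 0.08 without control 17 and 0.21 without both animals.

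CATSPER4, the remaining pore gene, was not well above background on any of the 15 arrays. Its spots read 2.38 to 13.5 on 14 arrays, with gaps between spots of up to 4.23-fold. No comparison between the groups is given for it, and the reading of -1.07 for prednisolone 30 came from a spot at 203 beside one at 2.73.

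Among the kinases, TSSK3, a kinase that in mice is required for sperm formation, read 3.08, 3.26, 3.11, 3.91, 3.68, 2.98, 3.56 and 3.68 in treated testes, against 2.22, 3.46, 2.70, 3.35, 3.15, 3.67 and 3.12 in controls. Its highest value was in prednisolone 28 and its lowest in control 17. The means were 3.41 ± 0.34 (n = 8) in treated and 3.10 ± 0.49 (n = 7) in control testes, a difference of 0.31 (-0.15 to 0.77, unadjusted p 0.174 and adjusted p 0.883 in limma). It was the member with the smallest p. Without prednisolone 30 the difference was 0.37, and without control 17 it was 0.16.

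The probe matched to TSSK1, whose mouse counterpart acts in the shaping of the sperm tail, read 1.30, 1.31, 1.49, 1.55, 1.74, 1.63, 1.43 and 1.44 in treated testes, against 0.43, 1.52, 1.19, 1.45, 1.20, 1.86 and 1.12 in controls. All 8 treated animals lay above the control mean of 1.25, as did 3 of 7 controls, and the highest value of any animal was that of control 23. The treated mean was 1.49 ± 0.15 (n = 8) and the control mean 1.25 ± 0.45 (n = 7), a difference of 0.23 (-0.15 to 0.61). The difference was 0.10 without control 17.

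TSSK6 encodes a kinase that in mice is required for compacting sperm DNA. It read 0.95, 1.37, 2.08, 1.75, 1.86, 0.79, 0.74 and 1.20 in treated testes, against 0.54, 1.49, 1.50, 1.60, 1.62, 1.67 and 1.09 in controls. Treated animals spanned nearly the whole range, from prednisolone 31 at 0.74 to prednisolone 27 at 2.08. The means were 1.34 ± 0.51 (n = 8) in treated and 1.36 ± 0.41 (n = 7) in control testes, and the difference was -0.02 (-0.52 to 0.49, adjusted p 0.988 in limma). Without prednisolone 30 the difference was 0.06.

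**Figure D3:**
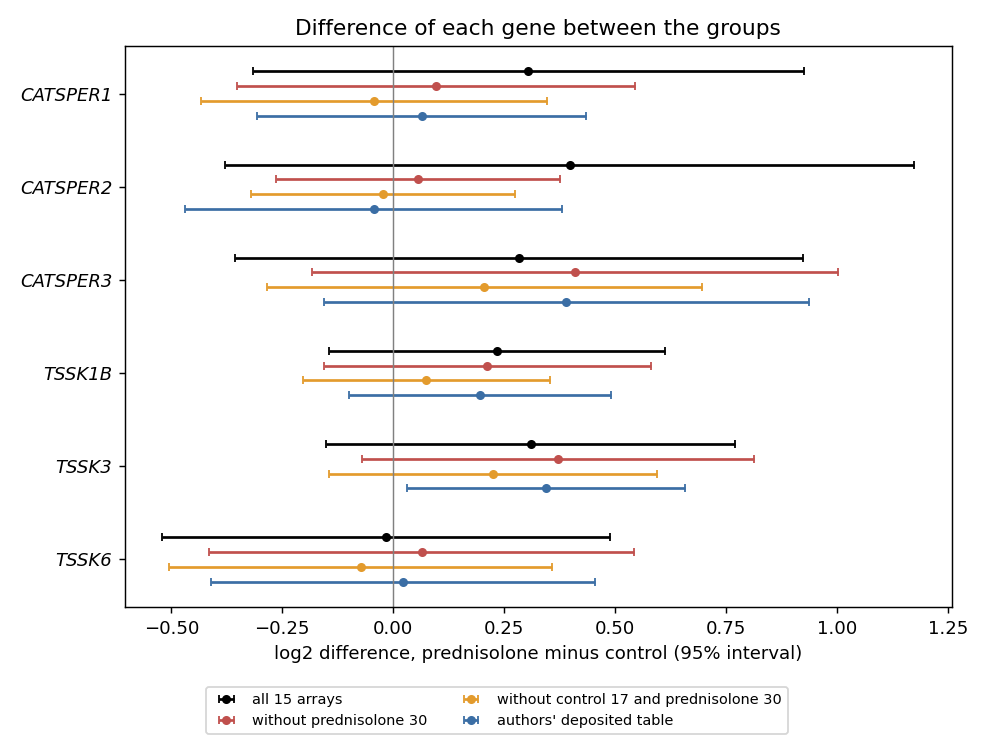
Log2 difference (x axis), prednisolone minus control, of the 6 tested genes with 95% intervals from limma, for all 15 arrays, without prednisolone 30, without control 17 and prednisolone 30, and from the authors' deposited table. Apart from TSSK3 in the deposited table (0.34, 0.03 to 0.66), every interval includes 0.

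In the authors' deposited table, whose column for prednisolone 30 lay near those of the other treated animals (CATSPER1 12.56 on the log2 scale), the differences were 0.06 for CATSPER1, -0.04 for CATSPER2, 0.39 for CATSPER3, 0.20 for TSSK1B, 0.34 for TSSK3 and 0.02 for TSSK6. Differences were above 0 for 5 of 6 members and for 48.8% of all genes. CATSPER2 had no value there for 1 treated and 1 control animal. TSSK3 averaged 14.36 ± 0.20 (n = 8) in treated and 14.01 ± 0.36 (n = 7) in control testes, and its interval of 0.03 to 0.66 excluded 0. Its unadjusted p was 0.0327 and its adjusted p 0.846 in limma, and 5.49% of all genes had an unadjusted p under 0.05 in that table. Without prednisolone 30 the TSSK3 difference there was 0.34 (0.0023 to 0.67, unadjusted p 0.0486 and adjusted p 0.912 in limma). In that fit 669 of 13934 genes had an unadjusted p under 0.05. A difference in TSSK3 was thus not detected after adjustment in either set of values.

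The spread between animals was set beside the spread between spots. Over the 14 arrays without prednisolone 30, the spread between animals of a group was 13.7 times the spread between spots for TSSK6 (0.46 and 0.03, SD of log2), 6.38 times for CATSPER3 (0.58 and 0.09), 3.32 times for TSSK3 and 2.68 times for TSSK1B. For CATSPER1 the ratio was 1.29 and for CATSPER2 1.45, the lowest of the tested members. Over all genes tested the median spread was 0.32 between animals and 0.18 between spots. The spread between spots is that of a single spot, while a level averages 2 spots. These ratios therefore do not set animals against the spot noise of a level. CATSPER3 varied more between animals than 90.1% of the genes tested, and CATSPER2 more than 37.5%. From the lowest to the highest of the 14 animals the range was 4.44-fold for CATSPER3, 3.22-fold for TSSK3 and 1.80-fold for CATSPER2.

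Levels of the members also differed between animals of the same group. Control 17 was the lowest of the 14 animals in all 6 tested members, with a mean of -0.94 relative to the mean of the 14, and it was also the lowest of those with a value for the 6 in the deposited table. Prednisolone 28 and prednisolone 29 were above the mean of the 14 in 6 of 6 members, with means of 0.30 and 0.44, and control 23 averaged 0.38. Prednisolone 25 was below in 6 of 6, with a mean of -0.23. The mean over the tested genes of a list of spermatid and sperm markers was taken in each animal as well. It stood near the members' mean in control 23 (0.40, members 0.38) and prednisolone 28 (0.31, members 0.30). The same held in prednisolone 32 (0.18, members 0.20) and control 21 (0.13, members 0.14). The 2 means lay further apart in control 17 (-0.76, members -0.94), prednisolone 29 (0.28, members 0.44) and prednisolone 25 (-0.04, members -0.23). They did so too in prednisolone 27 (-0.22, members -0.02) and control 20 (-0.20, members -0.05). In prednisolone 31 they had opposite signs (0.06, members -0.04). In control 17 the smooth muscle list stood at 1.24 and the endothelial list at 0.87, against -0.47 to 0.47 for smooth muscle and -0.30 to 0.28 for endothelium on the other 13 arrays.

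**Figure D4:**
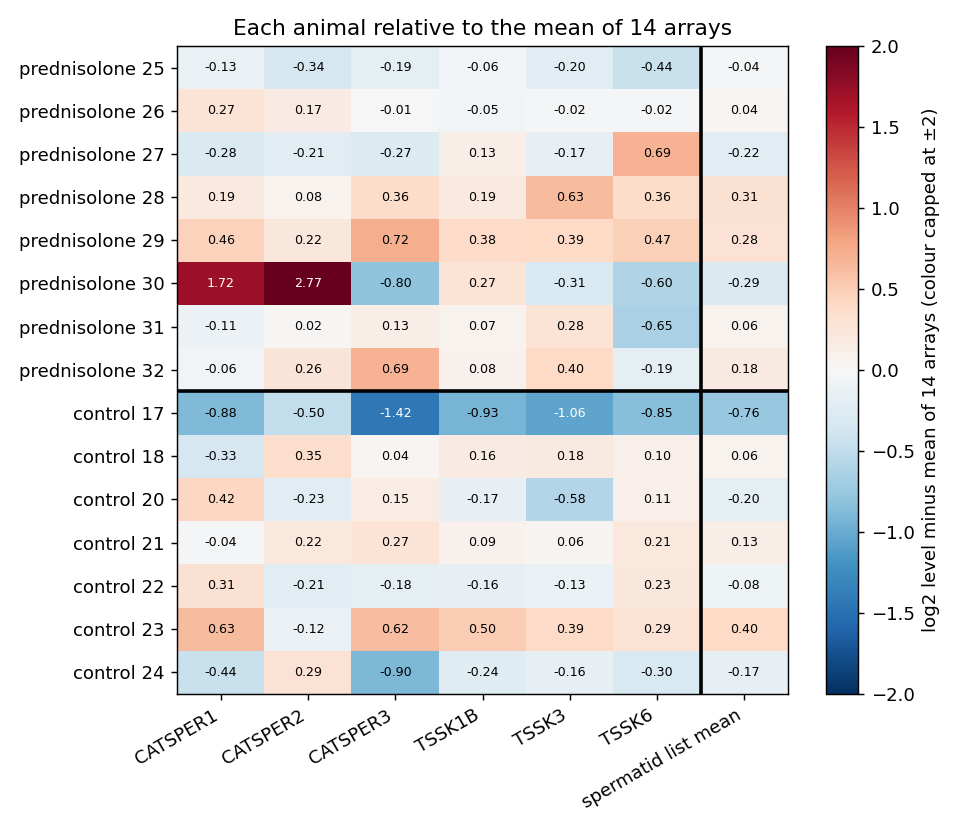
Log2 level minus the mean of the 14 arrays without prednisolone 30 for the 6 tested genes, and the mean of the spermatid and sperm marker list in the right column, with the prednisolone animals above the line and controls below it. Control 17 is below 0 in every column, at -0.50 to -1.42 for the members, and prednisolone 28 and 29 are above 0 in every column.

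Across the groups the spermatid list had 16 of 21 tested genes higher in treated testes, where 52% of all genes were higher. Its median difference was 0.09, against 0.015 over all genes. Without control 17 its median was -0.02, and without prednisolone 30 it was 0.21. The meiotic list had 3 of 14 higher (median -0.16). Its median was -0.03 without prednisolone 30, -0.22 without control 17 and -0.16 without both animals. Among the somatic lists the median differences were 0.10 for Sertoli cells, 0.13 for Leydig cells, -0.08 for smooth muscle, 0.13 for endothelium and -0.02 for blood and immune cells. Without prednisolone 30 the smooth muscle median was 0.04 and the endothelial median -0.0024, and without control 17 they were 0.11 and 0.32. Without both animals they were 0.26, with 10 of 10 smooth muscle genes higher (51.5% of all genes), and 0.18. No gene of any cell type list passed the adjusted threshold, and the part of cell composition in the members' levels was not tested.

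The arrays lay on 7 slides and were scanned on 5 days, and only slide 1, slide 4 and scan day 1 held both groups. On the other slides and days, group and batch cannot be told apart. Within slide 1, with 2 treated and 2 control animals of which 1 was control 17, the differences were 0.68 for CATSPER1, -0.01 for CATSPER2, 0.59 for CATSPER3, 0.33 for TSSK1B, 0.33 for TSSK3 and 0.15 for TSSK6. Within slide 4, with prednisolone 29 and 30 against control 23 alone, they were 0.46, 1.61, -0.65, -0.18, -0.34 and -0.35 in the same order of genes. The differences within scan day 1, with 6 treated and 3 control animals, were 0.55, 0.61, 0.35, 0.21, 0.25 and -0.08. Leaving out control 17 and prednisolone 30 on that day was a choice made after seeing the data. It left 5 treated animals against controls 18 and 23. All 6 differences were then below 0, from -0.36 to -0.05, where 50.4% of all genes had a difference above 0. None of the members passed the adjusted threshold in any of these comparisons.

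Other genes of the same functions were read from lists of CatSper auxiliary subunits, TSSK relatives and partners, sperm ion channels and sperm cAMP and calcium signalling. Of 31 genes tested, none passed the adjusted threshold. At an unadjusted limma p under 0.05 stood 1 gene of the kinase list and 2 of the ion channel list (2.43% of all genes). Without control 17 it was 0 in all 4 lists (2.17% of all genes). Without control 17 and prednisolone 30 it was 1 of the kinase list and 3 of the ion channel list (687 of 13934 genes). Of 10 auxiliary subunits only 3 had a probe: the difference was 0.06 for CATSPERB, -0.10 for CATSPERD and -0.05 for C2CD6. Without prednisolone 30, where CATSPERB and CATSPERD were not well above background, all 3 had the other sign, at -0.07, 0.03 and 0.06 in the same order. The other 7 subunits were not analysed here.

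Among the kinase partners, TSKS, a substrate that in mice binds TSSK1 and TSSK2, averaged 4.66 ± 0.20 (n = 8) in treated and 4.23 ± 0.46 (n = 7) in control testes, a difference of 0.43 (0.04 to 0.83, unadjusted p 0.0335 and adjusted p 0.883 in limma). Every treated animal read 4.39 or more, against 3.35 in control 17 and 4.13 to 4.89 in the other controls. Without control 17 the difference was 0.29. The list had 4 of 7 genes higher and a median of 0.08. PPP1CC, a protein phosphatase catalytic subunit, differed by -0.33, or by -0.14 without prednisolone 30, and ODF2, a protein of the outer dense fibres, by 0.30.

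KCNU1, which encodes the sperm potassium channel SLO3, averaged -0.54 ± 0.66 (n = 8) in treated and -1.27 ± 0.51 (n = 7) in control testes, a difference of 0.73 (0.11 to 1.35, unadjusted p 0.0244 and adjusted p 0.883 in limma). Prednisolone 30 read 0.96 and the next treated animal -0.45, and without it the difference was 0.51. SLC36A3, a solute carrier, differed by 0.45 (0.0056 to 0.89, unadjusted p 0.0475), or by 0.28 without control 17, and PKD2, a calcium-permeable channel, by 0.48, or by 0.24 without prednisolone 30. The ion channel list had 5 genes higher and 5 lower. In the signalling list 3 of 11 genes were higher, or 6 of 11 without prednisolone 30, and the regulatory subunits of protein kinase A differed by 0.45 for PRKAR2A and -0.45 for PRKAR1A, with 0.20 and -0.20 without prednisolone 30.

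**Figure D5:**
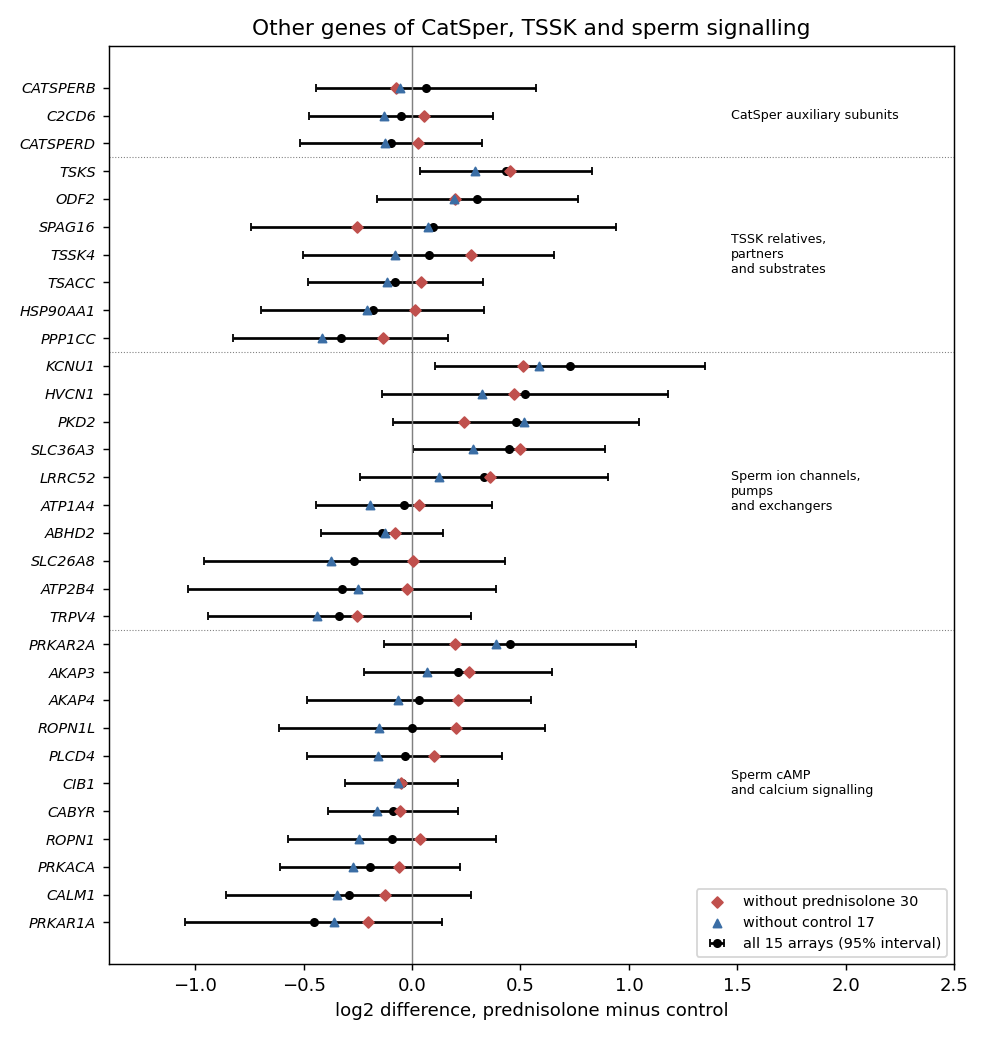
Log2 difference (x axis), prednisolone minus control, of the 31 tested genes in the 4 lists, with 95% intervals over all 15 arrays; diamonds leave out prednisolone 30 and triangles leave out control 17. KCNU1 (0.73), SLC36A3 (0.45) and TSKS (0.43) have intervals above 0 and none passed the adjusted threshold.

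The genes whose levels followed a member most closely over the 14 animals were taken from the whole array, 3 per member, as a description. For CATSPER3 they were ANKRD9 (Pearson r = 0.957), C15H11orf71 (0.953) and CARMIL2 (0.952), and for TSSK3 MAD2L2 (0.968), ZNF783 (0.964) and WDPCP (0.959). For TSSK1B they were GPR137 (0.956), ALLC (0.945) and CENPT (0.940), for CATSPER1 HIP1 (0.930), MRPL2 (0.927) and VARS1 (0.923), for TSSK6 ZNF296 (0.899), LIN7B (0.889) and TSPAN17 (0.867), and for CATSPER2 GPAT2 (0.835), AAR2 (0.831) and C14H8orf82 (0.827). Of these 18 genes 0 were members and 0 were in the marker and pathway lists. Without control 17, the animal lowest in every tested member, the correlations were lower, from 0.745 for C14H8orf82 to 0.943 for MAD2L2. Of the 18 genes, 8 stayed among the 3 closest. Those of TSSK1B then ranked 4 (GPR137), 13 (ALLC) and 25 (CENPT, r = 0.839).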

How the data were processed

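Total RNA of testis from 8 prednisolone-treated and 7 control cattle was measured on single-colour (Cyanine 3) Agilent arrays, 1 array per animal. The deposited scanner files hold spot intensity from Feature Extraction 9.5.1.1, per the file headers, and were not normalized between arrays. A second file deposited by the authors is a table of scaled intensity, 1 column per animal. R 2.11.1 appears in the submitters' processing notes, and the sources used here do not give the scaling of that table. Every column of it was used, and that of prednisolone 30 did not follow its scanner file.

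Control spots were left out, outlier spots were masked, and spots of a probe were averaged as log2 processed signal minus the 75th percentile of the array. Of 21475 probes, 18492 were well above background on at least 7 of 15 arrays and were tested. Names came from the scanner files and the ARS-UCD2.0 gene table. No coordinates or sequences are printed, since the sources used here name no genome build for the array design. A gene was read through its tested probe of highest mean. Treated and control arrays entered a two-sided moderated test of limma 3.58.1, run under R 4.3.3 and tested on simulated data, with p adjusted by Benjamini-Hochberg over all tested probes and a threshold of 0.05. The number of arrays limits the precision. Alternatives were the scaling, background correction, filter, outlier spots, array weights, slide, scan day, the deposited table and leaving out animals. The members, gene lists, tests and naming rule were chosen with earlier results of these data known. The rule named all members, the 3 genes of smallest unadjusted p in each pathway list, 9 tissue markers, and the 3 genes of highest correlation with each tested member.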

Additional observations from a re-analysis of the deposited data

Results flagged for a closer look

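Among 40 groups of values looked at, 10 held an animal far from the rest of its group. The measure was the gap to its nearest neighbour divided by the range of the group (Dixon's ratio). Chance gives about 2, but the groups share the same arrays and are not independent. The pathway genes were also named for their small p in these data. The 10 therefore cannot be read against the 2 as an excess over chance. Of the 10 values, 9 were from prednisolone 30, whose array was dim and whose spots disagreed. In that animal CATSPER1 read 3.43 (next treated animal 2.17), CATSPER2 -2.94 (next -5.44) and CATSPER4 -1.07 (next -8.31). CATSPER4 was not well above background on any array, and CATSPER2, CATSPERD and PRKAR2A were not on this one, so these readings are not measured levels and their gaps are not differences in level. Among other genes it read -3.93 for CATSPERD (next -3.25), -2.48 for PPP1CC (next -1.15), 0.96 for KCNU1 (next -0.45), 0.80 for PKD2 (next -0.86), -1.18 for PRKAR1A (next 0.56) and -2.88 for PRKAR2A (next -4.78). The remaining value was PRKAR1A in control 17, at 1.58 against 1.06 in the next control. The part of array quality in these values was not tested.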

How the results depend on the processing

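No member, pathway gene or other gene passed an adjusted p of 0.05 in limma under any of the 32 distinct alternatives, while the count of all genes at an unadjusted p under 0.05 was 339 over all arrays, 583 without prednisolone 30, 75 with normexp and 1110 within scan day 1 without control 17 and prednisolone 30, an alternative chosen after seeing the data. Slides 1 and 4 alone held both groups, so a fit with slide as a block compares the groups on those slides only. It gave differences of 0.59 for CATSPER1, 0.64 for CATSPER2, 0.09 for CATSPER3, 0.13 for TSSK1B and 0.06 for TSSK3. The fit within slide 4 gave 1.61 for CATSPER2. Both fits include prednisolone 30, whose CATSPER2 probe was not well above background and whose CATSPER1 spots read 91.5 and 3110. The other arrays of slide 4, prednisolone 29 and control 23, read -5.49 and -5.83 for CATSPER2. Leaving out 1 animal gave 0.10 to 0.42 for CATSPER1, 0.06 to 0.50 for CATSPER2, 0.08 to 0.42 for CATSPER3, 0.10 to 0.34 for TSSK1B, 0.16 to 0.41 for TSSK3 and -0.15 to 0.071 for TSSK6. Without control 17 and prednisolone 30 the difference was -0.043 for CATSPER1 and -0.023 for CATSPER2, and within scan day 1 without them it was -0.062 for CATSPER1, -0.050 for CATSPER2, -0.060 for CATSPER3, -0.25 for TSSK1B and -0.11 for TSSK3. CATSPER2 was -0.044 in the deposited table, -0.076 in it without prednisolone 30, -0.0079 with array weights and -0.013 within slide 1. Within slide 4 CATSPER3 was -0.65, TSSK1B -0.18 and TSSK3 -0.34. TSSK6 was 0.064 without prednisolone 30, 0.030 with quantile normalization, 0.023 in the deposited table, 0.047 in it without prednisolone 30 and 0.15 within slide 1. The share of all genes higher was 52.0% here, 40.8% with quantile normalization, 43.1% with median scaling and 64.8% with normexp. Over all genes, directions of small differences thus depend on the scaling and background correction. Among the members only TSSK6 changed sign with quantile normalization, and none did with median scaling or normexp. No paired analysis was possible because the groups share no animal numbers. The cause of these changes was not tested.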
